A study of Mus musculus with 6 samples.

Results

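The unfolded protein response was followed through 10 genes: the sensors Ern1, Eif2ak3 and Atf6, the transcription factors Xbp1, Atf4 and Ddit3, and the targets Trib3, Chac1, Asns and Ppp1r15a. They were taken by symbol from the 23420 genes of the count table, where all 10 are listed, by their names and roles and by no threshold on a measured value. All 10 passed edgeR's filter on low counts, as did 11974 genes in total.

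The endoplasmic reticulum folds secreted and membrane proteins, and 3 sensors in its membrane respond when unfolded proteins build up. IRE1 (encoded by Ern1) cuts Xbp1 mRNA so that a strong transcription factor is made, PERK (Eif2ak3) phosphorylates the translation factor eIF2, which slows protein synthesis but favours translation of Atf4 mRNA, and ATF6 is cleaved in the Golgi to free a transcription factor. ATF4 and its partner CHOP (Ddit3) switch on genes of amino acid supply, feedback and cell death, and ATF4 is also reached by other eIF2 kinases that sense amino acid lack, viral RNA or haem. Proteasome function belongs to the same balance, since misfolded proteins of the reticulum are exported and degraded by proteasomes. Counts per gene show the amount of mRNA, and show neither the cut form of Xbp1 nor phosphorylation, cleavage or translation.

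The cells were mesenchymal stromal cells (MSCs), adherent non-blood cells grown from the femoral marrow of female C57BL/6 mice aged 6 to 8 weeks. At passage 5 they received an AP2 retroviral construct with an eGFP marker. In the 3 Ctl MSC libraries this construct was empty, and in the 3 MSC-TPr libraries it carried the thymoproteasome subunits β1i (Psmb9), β2i (Psmb10) and β5t (Psmb11), separated by self-cleaving peptide sequences. The comparison addresses how the expression of this proteasome, found naturally in the thymic cortex, goes with the transcription of stress genes. The labels do not say whether libraries came from separate cultures, so the p-values measure the spread between these samples, which may be technical.

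Counted reads ranged from 16158756 to 22158887 per library. Values are in CPM, counts scaled to the size of the library with edgeR's TMM method, on which 3 reads amount to 0.139 to 0.181, a limit for counting error only. The transduced genes were not higher in every MSC-TPr library: Psmb10 stood at 8.38 to 27.8 CPM in Ctl MSC against 8.97 to 17.3 in MSC-TPr, Psmb9 at 0.801 to 3.38 and 0.554 to 1.24, and Psmb11 at 0.110 to 0.214 and 0.046 to 0.355. Summed over the 3 genes, the level was 31.3, 9.83 and 9.32 CPM in Ctl MSC 1, 2 and 3. In MSC-TPr 1, 2 and 3 it was 9.74, 18.9 and 16.5 CPM. The construct's own sequence was not used here, so all directions below are between library labels. The libraries numbered 1 stood apart from the others of their group and lay with the other label on the first principal component (58.5% of variance), Ctl MSC 1 at −40.9 near MSC-TPr 2 and 3 (−50.3 and −49.4) and MSC-TPr 1 at 40.5 near Ctl MSC 2 and 3 (50.8 and 49.2), while the second component (28.3%) kept the libraries apart by label. The summed transduced genes split the libraries in the same way, with the higher levels in Ctl MSC 1 and MSC-TPr 2 and 3. Most of this sum was Psmb10 in every library, and Psmb11 lay near the level of 3 reads. Whether the labels of the libraries numbered 1 were exchanged was not tested, and every fold change over 6 libraries takes the labels as given. Cell division genes (18, averaged on the log2 CPM scale) stood at 6.55 in Ctl MSC 1 and 6.44 and 6.51 in MSC-TPr 2 and 3, but 3.20 in Ctl MSC 2 and in Ctl MSC 3 and 3.24 in MSC-TPr 1. Of 7 MSC markers, 6 had at least 3 reads in every library, with a summed level of 833 to 1835 CPM in Ctl MSC (highest in Ctl MSC 1) and 660.3 to 1414 in MSC-TPr (lowest in MSC-TPr 1), while Thy1 had 1 read in Ctl MSC 1 and 0 in the others.

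None of the 10 genes differed between the groups beyond the spread of the libraries. Their levels moved by library more than by group: 8 of the 10 were lowest in Ctl MSC 1, and Trib3, Chac1 and Ppp1r15a were highest in MSC-TPr 1. Calls required an adjusted p (quasi-likelihood test of edgeR, with Benjamini-Hochberg adjustment across the genes tested) under 0.05, with a log2 fold change beyond 0.5 in either direction. Of the 10 genes, 0 were called by edgeR against 0.426% of all genes tested, and 0 had an unadjusted p under 0.05 against 15.0%. DESeq2 also called 0 of the 10, against 5.28% of all genes it tested. By DESeq2, 0 had an unadjusted p under 0.05, against 16.8% of the genes that edgeR tested. The groups overlapped for all 10, whereas they did not overlap for 22.6% of all genes. The 10 log2 fold changes (MSC-TPr over Ctl MSC) ran from −1.01 to 0.64 with a median of 0.09, beside a median of 0.01 over all genes. As these are bulk samples, fewer cells that express a gene and less RNA of it per cell cannot be told apart.

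**Figure D1:**
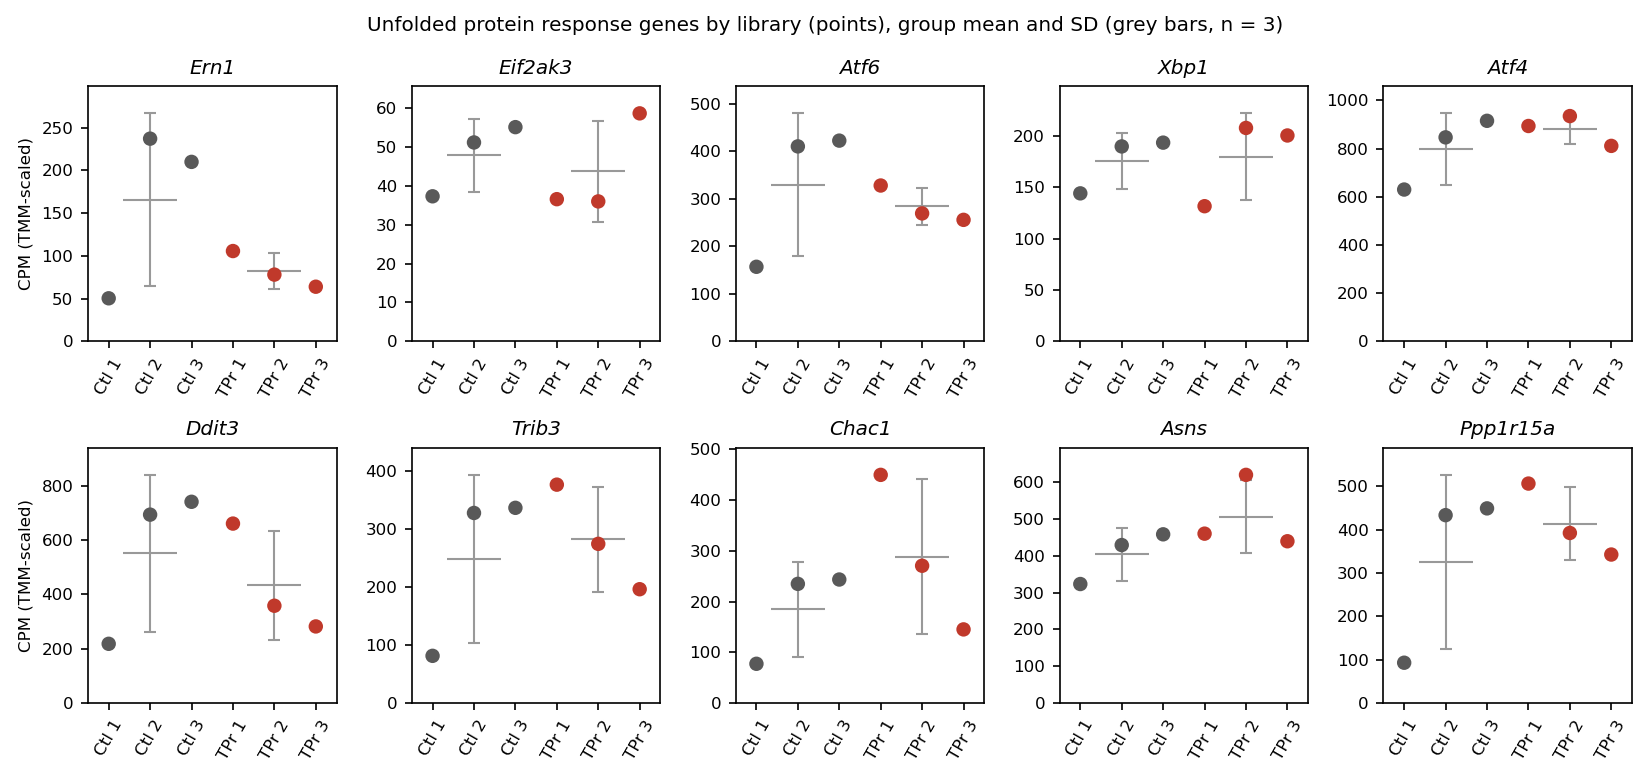
Level of each gene in CPM (vertical axis, from 0) in the 3 Ctl MSC libraries (grey points) and the 3 MSC-TPr libraries (red points), with group mean and SD as grey bars. Ctl MSC 1 is the lowest library for 8 of the 10 genes, and no gene separates the groups.

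Among the sensors, Ern1 showed the largest log2 fold change in size of the 10 genes. In the order of the library numbers, which is kept throughout, Ern1 stood at 50.4, 237 and 209.9 CPM in Ctl MSC against 105.6, 78.1 and 63.9 CPM in MSC-TPr. Ctl MSC 2 and 3 lay above every MSC-TPr library and Ctl MSC 1 below every one, so the groups overlapped through Ctl MSC 1. The means were 166 ± 101 and 82.5 ± 21.2 CPM (SD, n = 3 each), and the log2 fold change was −1.01 (SE 0.55; edgeR, adjusted p = 0.444). Without Ctl MSC 1 the log2 fold change of Ern1 was −1.43 with an adjusted p of 0.0687 (edgeR). With any other library left out, the adjusted p was 0.338 to 0.863. Ern1 (ENSMUSG00000020715.9) lies on the minus strand of chromosome 11 of mm10, from 106394650 to 106487852.

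Atf6 was also lowest in Ctl MSC 1, with a narrower range. Its levels were 157, 410.4 and 423 CPM in Ctl MSC against 328, 269 and 256 CPM in MSC-TPr. All MSC-TPr libraries lay between Ctl MSC 1 and the other Ctl MSC libraries. The means of 330.01 ± 149.9 and 284 ± 38.4 CPM (SD, n = 3 each) gave a log2 fold change of −0.21 (SE 0.38, adjusted p = 0.833). The gene (ENSMUSG00000026663.6) occupies 170704674 to 170867771 on chromosome 1, minus strand.

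Eif2ak3, the kinase upstream of ATF4, was the least abundant of the 10 genes per kilobase and varied 1.63-fold between libraries. It was counted at 37.3, 51.1 and 55.0 CPM in Ctl MSC against 36.5, 36.0 and 58.6 CPM in MSC-TPr. The highest and the lowest library both carried the MSC-TPr label. The log2 fold change was −0.13 (SE 0.26, adjusted p = 0.854), from means of 47.8 ± 9.33 and 43.7 ± 12.9 CPM (SD, n = 3 each). Eif2ak3 (ENSMUSG00000031668.14) lies on the plus strand of chromosome 6 from 70844515 to 70905245. An unlisted gene model on the opposite strand, Gm43292, shares 485 bases of its exons, and whether the counting used the strand is not given in the sources used here.

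The transcription factors divided into Xbp1 and Atf4, with narrow ranges, and Ddit3, with a wide one. Xbp1 was at 144, 189.9 and 194 CPM in Ctl MSC against 132, 208 and 201 CPM in MSC-TPr. Its lowest level was in MSC-TPr 1, which makes it and Eif2ak3 the genes of the 10 that were not lowest in Ctl MSC 1. The group means of 176 ± 27.5 and 180.02 ± 42.0 CPM (SD, n = 3 each) differed by 0.03 on the log2 scale (SE 0.23, adjusted p = 0.961). Xbp1 (ENSMUSG00000020484.18) lies on chromosome 11 from 5520659 to 5525893, plus strand.

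Atf4 had the highest mean per kilobase of the 10 genes in both groups. Its levels were 630.1, 847 and 915 CPM in Ctl MSC against 894, 935 and 811 CPM in MSC-TPr. Ctl MSC 1 was the lowest library, and Ctl MSC 2 and 3 lay between the lowest and the highest MSC-TPr library. The log2 fold change was 0.14 (SE 0.19, adjusted p = 0.784), from means of 797 ± 149 and 880.0 ± 63.0 CPM (SD, n = 3 each). Atf4 (ENSMUSG00000042406.8) lies on chromosome 15 from 80255184 to 80257541, plus strand.

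Ddit3, which encodes the pro-apoptotic factor CHOP, was 3.40-fold higher in its highest library than in its lowest. It stood at 218, 694 and 741 CPM in Ctl MSC against 661, 358 and 282 CPM in MSC-TPr. Ctl MSC 2 and 3 and MSC-TPr 1, the libraries with low cell division genes, formed the upper set, and Ctl MSC 1 with MSC-TPr 2 and 3 the lower set. The means were 551 ± 289 and 433 ± 200.4 CPM (SD, n = 3 each), the log2 fold change was −0.35 (SE 0.52) and the adjusted p was 0.805. Ddit3 (ENSMUSG00000025408.15) occupies 127290774 to 127296288 on chromosome 10, plus strand, and shares 68 bases of exon with Mars on the opposite strand. Another gene model of the same name on the same strand shares 105 bases (6.13%) of its exons. The level of Ddit3 per kilobase uses the exon length of the model given here only.

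Of the 4 targets, 3 shared a low level in Ctl MSC 1 and a high one in MSC-TPr 1. Trib3, a pseudokinase that dampens ATF4 and AKT signalling, stood at 81.3, 328 and 337 CPM in Ctl MSC against 377, 275 and 196 CPM in MSC-TPr. Ctl MSC 1 was the lowest library and MSC-TPr 1 the highest, with MSC-TPr 2 and 3 below Ctl MSC 2 and 3. The means of 249 ± 145 and 283 ± 90.5 CPM (SD, n = 3 each) gave a log2 fold change of 0.18 (SE 0.54, adjusted p = 0.901). Trib3 (ENSMUSG00000032715.9) lies on chromosome 2 from 152337422 to 152344032, minus strand.

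Chac1, an enzyme that degrades glutathione, had the widest range of the 10, 5.83-fold from its lowest to its highest library. It was at 77.2, 235 and 243 CPM in Ctl MSC against 449.9, 271 and 145 CPM in MSC-TPr. MSC-TPr 1 and 2 lay above all Ctl MSC libraries, and MSC-TPr 3 lay between Ctl MSC 1 and the other controls. The means were 185 ± 93.6 and 288 ± 153 CPM (SD, n = 3 each), with a log2 fold change of 0.64 (SE 0.55, adjusted p = 0.633), the most positive of the 10. Chac1 (ENSMUSG00000027313.3) lies on chromosome 2 from 119351229 to 119354381, plus strand.

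Ppp1r15a encodes GADD34, which directs a phosphatase to eIF2 and so ends the translational block. Its levels were 92.8, 434 and 449 CPM in Ctl MSC against 507, 393 and 343 CPM in MSC-TPr. Ctl MSC 1 lay far below the other 5 libraries, the lowest of which was 3.69-fold above it. The means of 325 ± 202 and 414 ± 84.0 CPM (SD, n = 3 each) differed by 0.35 on the log2 scale (SE 0.55, adjusted p = 0.814). Ppp1r15a (ENSMUSG00000040435.12) lies on chromosome 7 from 45522916 to 45526268, minus strand.

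Asns, which makes asparagine, behaved more like Atf4 than like the other targets. It was at 323, 429 and 458 CPM in Ctl MSC against 460.1, 619.9 and 439 CPM in MSC-TPr. Only Ctl MSC 3, among the controls, exceeded an MSC-TPr library. The log2 fold change was 0.33 with the smallest unadjusted p of the targets, 0.178 (SE 0.22, adjusted p = 0.527), from means of 404 ± 71.1 and 507 ± 98.8 CPM (SD, n = 3 each). Asns (ENSMUSG00000029752.12) lies on chromosome 6 from 7675169 to 7693254, minus strand.

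The sequence upstream of the targets is shown because Trib3, Chac1 and Ppp1r15a were all lowest in Ctl MSC 1 and highest in MSC-TPr 1. RefSeq promoters (GRCm38.p6, the assembly behind mm10) were found for 9 of the 10 genes, with no entry for Atf6, and the 250 bases before each start site were searched on both strands. The motifs were CARE (TGATGNAA, bound by ATF4 with a C/EBP partner) and CRE (TGACGTCA, bound by ATF and CREB factors), and the core of UPRE (TGACGTG, whose first 6 letters are also those of CRE), ERSE (CCAAT and CCACG with 9 bases between) and ERSE-II (ATTGG and CCACG with 1 base between), which XBP1 or ATF6 can bind. The letters of CARE occur in 3.45% of 32817 promoters of this length, those of CRE in 1.55%, of the UPRE core in 1.65%, of ERSE in 0.113% and of ERSE-II in 0.0305%. Matches to CARE were found upstream of Chac1 and Asns and a match to CRE upstream of Ppp1r15a, and the other motifs had 0 matches in the 9 windows. Capitals mark the match (for Chac1 it reads on the minus strand), each sequence is written 5′ to 3′ on the strand of its gene, and parts that the annotation places in exons of any gene were left out, apart from 30 bases for Asns, whose match lies in its annotated first exon.
Chac1, chr2:119350992-119351228, plus strand: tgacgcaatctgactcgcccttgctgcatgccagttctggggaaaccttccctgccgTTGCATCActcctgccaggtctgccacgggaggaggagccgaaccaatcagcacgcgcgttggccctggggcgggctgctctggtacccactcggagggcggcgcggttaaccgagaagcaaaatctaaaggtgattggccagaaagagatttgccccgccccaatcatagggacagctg
Asns, chr6:7693214-7693243, minus strand: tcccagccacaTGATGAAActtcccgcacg
Ppp1r15a, chr7:45526269-45526329, minus strand: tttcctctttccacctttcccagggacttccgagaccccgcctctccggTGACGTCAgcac
Trib3, chr2:152344061-152344310, minus strand, with no match: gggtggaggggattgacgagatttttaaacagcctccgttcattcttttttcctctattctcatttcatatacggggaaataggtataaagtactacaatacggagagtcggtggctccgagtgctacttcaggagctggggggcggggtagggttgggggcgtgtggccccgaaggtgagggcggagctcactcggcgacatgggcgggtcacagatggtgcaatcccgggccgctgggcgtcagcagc
The match of Chac1 lies 193 to 186 bases before the start site, that of Asns 23 to 16 and that of Ppp1r15a 12 to 5. Trib3, Chac1 and Ppp1r15a therefore do not share a matched motif in these windows, and such letters are a description and not a shown binding site.

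The libraries numbered 1 were set side by side, since each stood apart from its group. MSC-TPr 1 was at least 2-fold above Ctl MSC 1 for 6 of the 10 genes, against 10.2% of all genes tested. These were Chac1 (5.83-fold), Ppp1r15a (5.46-fold), Trib3 (4.64-fold), Ddit3 (3.03-fold), Ern1 (2.1-fold) and Atf6 (2.09-fold). The other 4 differed less, from 0.913-fold for Xbp1 to 1.42-fold for Asns and for Atf4. Each of the other 5 libraries was at least 2-fold above Ctl MSC 1 for Ppp1r15a and Trib3, against 1.09% of all genes. Ctl MSC 1 was the lowest library for 8 of the 10 genes and for 21.0% of all genes. These are comparisons of 1 library with another, with no replicate check.

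Over libraries 2 and 3 of each group, without those that stood apart, Ern1, Ddit3 and Atf6 were lower in MSC-TPr. The log2 fold change was −1.65 for Ern1 (SE 0.15, edgeR adjusted p = 0.00067), −1.16 for Ddit3 (SE 0.16, adjusted p = 0.0025) and −0.66 for Atf6 (SE 0.11, adjusted p = 0.0059). Ctl MSC 2 and 3 were far more alike than any other pair (chi-square of their counts of 5.02 per gene). MSC-TPr 2 and 3, the next most alike, were at 53.5. The common dispersion, edgeR's estimate of spread within groups, was 0.0168 here and 0.124 over all 6 libraries. Whether these libraries came from separate cultures is not given, so the small SE and p may reflect technical spread. The other 7 genes were not called, with Trib3 at −0.50 (adjusted p = 0.0635), Ppp1r15a at −0.26 (adjusted p = 0.137) and Chac1 at −0.20 (adjusted p = 0.58). Thus 3 of 10 were called, all lower, against 40.0% of all genes called in this fit, 20.6% higher and 19.4% lower. In these 4 libraries cell division genes were high in both MSC-TPr libraries and low in both Ctl MSC libraries (18 of 18 called higher, median log2 fold change 3.39), so the label and cell division cannot be told apart.

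With the averaged cell division genes added as a covariate to the fit of all 6 libraries, Chac1 was called higher in MSC-TPr. Its log2 fold change was 1.16 (SE 0.24, adjusted p = 0.0222), against 12.1% of all genes called in this fit and 4.76% called higher. Ppp1r15a (1.09, SE 0.37, adjusted p = 0.0848) and Trib3 (0.85, SE 0.30, adjusted p = 0.0925) had positive values that missed the threshold. Ern1 came to −0.30 (SE 0.32, adjusted p = 0.563), Ddit3 to 0.21 (adjusted p = 0.454) and Atf6 to 0.20 (adjusted p = 0.595), so that Ddit3 and Atf6 had the opposite sign to the fit of libraries 2 and 3. Within a group only the library numbered 1 differs in cell division, so this fit rests on Ctl MSC 1 and MSC-TPr 1. No gene of the 10 was called in both fits.

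**Figure D2:**
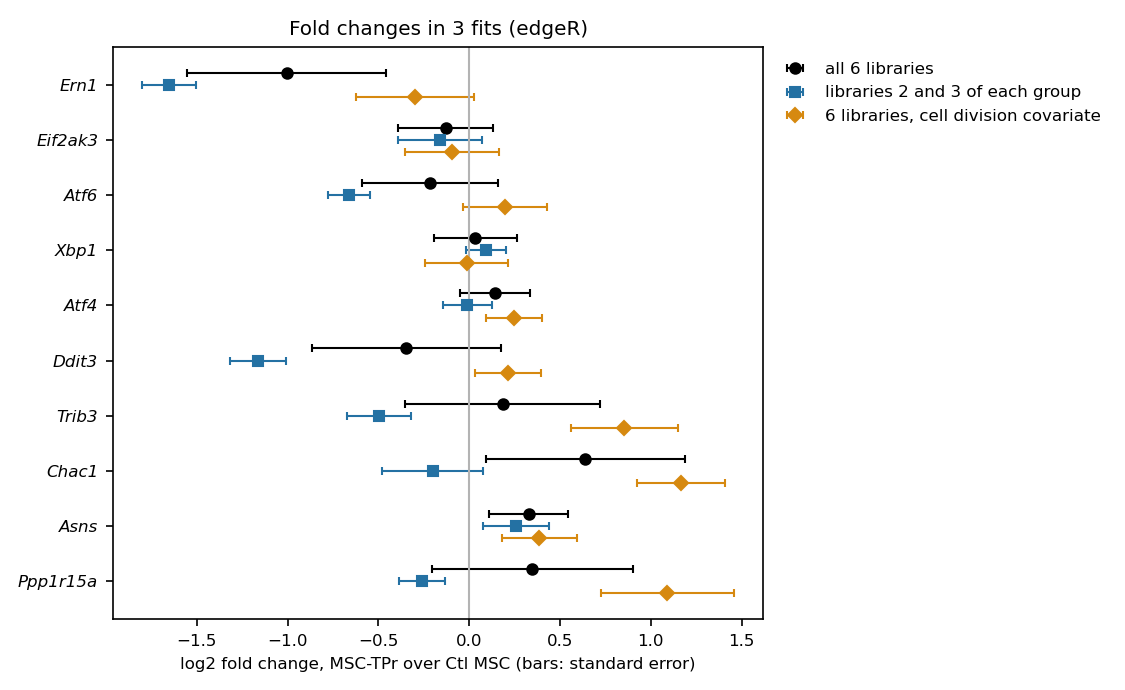
Log2 fold change of each gene, MSC-TPr over Ctl MSC, with its standard error (bars), over all 6 libraries (black circles), over libraries 2 and 3 of each group (blue squares) and over 6 libraries with the cell division covariate (orange diamonds). Ern1, Atf6 and Ddit3 are called lower only over libraries 2 and 3 and Chac1 is called higher only with the covariate, while Trib3, Chac1 and Ppp1r15a change sign between those fits.

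Levels were compared between genes as CPM per kilobase of exon. Atf4 and Ddit3 mRNAs were the most abundant in both groups and the mRNA of the sensors Ern1 and Eif2ak3 the least. In Ctl MSC the means ran from 338 ± 63.1 for Atf4 and 322 ± 169 for Ddit3 through Asns (148), Trib3 (117), Chac1 (113), Ppp1r15a (111), Xbp1 (54.1) and Atf6 (35.8) to 20.3 ± 12.3 for Ern1 and 7.93 ± 1.55 for Eif2ak3 (SD, n = 3). The ranges of every neighbouring pair in this order overlapped when different libraries were set against each other. Within each of the 3 libraries, however, Ddit3 lay above Asns, Asns above Trib3, Xbp1 above Atf6 and Atf6 above Ern1. In MSC-TPr the order was Atf4 (373 ± 26.7), Ddit3 (253 ± 117), Asns (185), Chac1 (176), Ppp1r15a (141), Trib3 (133), Xbp1 (55.4), Atf6 (30.8), Ern1 (10.1 ± 2.60) and Eif2ak3 (7.25 ± 2.14). There the ranges of Trib3 and Xbp1, of Xbp1 and Atf6 and of Atf6 and Ern1 did not overlap, and those of the other neighbours did.

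**Figure D3:**
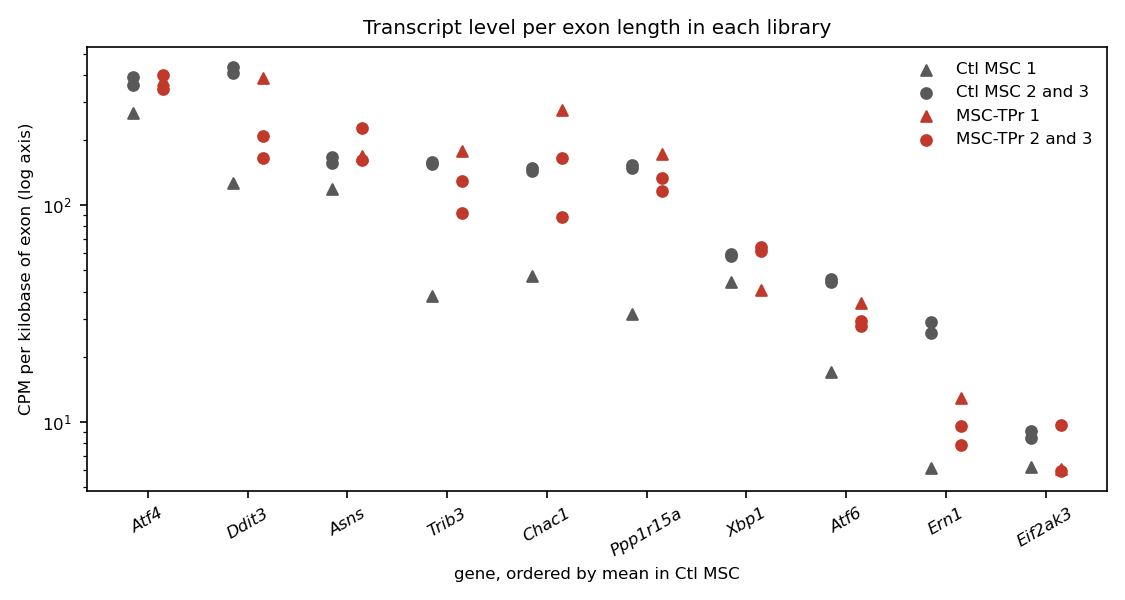
Level in CPM per kilobase of exon (log axis) of each gene, ordered by its mean in Ctl MSC, with libraries numbered 1 as triangles and libraries 2 and 3 as circles (grey, Ctl MSC; red, MSC-TPr). Atf4 and Ddit3 lie at the top and Eif2ak3 at the bottom, and the grey triangle of Ctl MSC 1 lies lowest for 8 of the 10 genes.

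The genes around the sensors and around eIF2 were followed as lists. Of the 14 genes listed as relatives, processing enzymes and partners of the sensors, 12 were tested, since Ern2 had no read and Map3k5 had 2 to 13 reads per library. The median log2 fold change of the 12 was −0.11, with 5 positive and 7 negative, beside 6124 positive of 11974 genes. edgeR called 0 of them, and 1 (8.33%) had an unadjusted p under 0.05, beside 15.0% of all genes. DESeq2 called 1 of 13 (7.69%), beside 5.28% of all genes. That gene was Ddx1, a helicase of the complex that rejoins cut tRNA and Xbp1 mRNA, with 150.4, 122 and 131 CPM in Ctl MSC against 199, 239 and 213 CPM in MSC-TPr. All MSC-TPr libraries lay above all Ctl MSC libraries, and the log2 fold change was 0.69 (SE 0.15, edgeR adjusted p = 0.136, DESeq2 adjusted p = 0.00696). Of the 12 genes, 1 (8.33%) was higher without overlap, beside 10.6% of all genes, and 2 (16.7%) were lower without overlap, beside 12.1%. These 2 were Zbtb8os (−0.29, edgeR adjusted p = 0.464) and Creb3 (−0.22, edgeR adjusted p = 0.534). Creb3l1 (0.66, adjusted p = 0.631) and Creb3l2 (−0.51, adjusted p = 0.523), both relatives of ATF6, overlapped between the groups.

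Of 12 genes of eIF2 and its kinases, phosphatases and exchange factor, 8 had positive log2 fold changes and the median was 0.22. By edgeR 0 were called and 3 of the 12 (25.0%) had an unadjusted p under 0.05, beside 15.0% of all genes, and DESeq2 called these 3, beside 5.28% of all genes. Eif2s1, the subunit that the kinases phosphorylate, stood at 154, 115 and 123 CPM in Ctl MSC against 187, 308 and 226 CPM in MSC-TPr (log2 fold change 0.88, SE 0.23, edgeR adjusted p = 0.183, DESeq2 adjusted p = 0.0316). Eif2b2, a subunit of the exchange factor eIF2B, stood at 32.3, 31.4 and 30.7 CPM against 73.6, 57.3 and 41.8 CPM (0.87, SE 0.23, edgeR adjusted p = 0.181, DESeq2 adjusted p = 0.0346). For both, every MSC-TPr library lay above every Ctl MSC library, and the same held for Eif2ak4, the kinase that senses amino acid lack (0.51, edgeR adjusted p = 0.202, DESeq2 adjusted p = 0.0485). Over all genes, 10.6% did not overlap and were higher. Eif2ak2, the kinase that senses viral RNA, had the most negative value (−0.63, edgeR adjusted p = 0.412). Ctl MSC 1 was the lowest library for 1 of these 12 genes.

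The wider ATF4 programme showed no common direction. Of 18 amino acid enzymes and transporters, 9 were positive and 9 negative (median 0.00). edgeR called 0, with 1 (5.56%) at an unadjusted p under 0.05, beside 15.0% of all genes. DESeq2 called 1 (5.56%), beside 5.28% of all genes. That gene was Slc7a3, a transporter of cationic amino acids, at 3.99, 31.7 and 34.7 CPM in Ctl MSC against 5.70, 2.60 and 2.09 CPM in MSC-TPr. Ctl MSC 2 and 3 stood above all other libraries, and Ctl MSC 1 lay within the range of MSC-TPr. The log2 fold change was −2.76 (SE 0.83, edgeR adjusted p = 0.215), and DESeq2 called it (adjusted p = 0.00921). Without Ctl MSC 1 edgeR called it too (−3.26, adjusted p = 0.0448), beside 0.852% of all genes called lower. In that fit the cell division genes had a median log2 fold change of 2.88, so it also compares libraries that differ in cell division. With any other library left out, edgeR called no gene of this list. Aldh1l2, a mitochondrial folate enzyme, and Slc6a9, a glycine transporter, had log2 fold changes of −0.75 (adjusted p = 0.484) and −0.60 (adjusted p = 0.573). The groups overlapped for both. Psat1 (0.46, edgeR adjusted p = 0.399) and Slc7a5 (0.42, edgeR adjusted p = 0.449) were higher in MSC-TPr without overlap. They were 2 of the 18 (11.1%), beside 10.6% of all genes, and 0 of the 18 were lower without overlap.

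For 12 tRNA synthetases, which charge tRNAs with amino acids, the median was 0.02 with 6 positive and 6 negative. edgeR and DESeq2 each called 0, beside 0.426% and 5.28% of all genes. At an unadjusted p under 0.05 there were 0 by edgeR and 1 (8.33%) by DESeq2. Of the genes edgeR tested, 15.0% and 16.8% reached this by the same tools. The largest values were those of Tars (0.43, adjusted p = 0.457), Aars (0.42, adjusted p = 0.332) and Cars (0.41, adjusted p = 0.342). Aars and Cars were higher without overlap, 2 of the 12 (16.7%), beside 10.6% of all genes. Of 15 stress and cell death genes of the ATF4 programme, 11 were positive (median 0.16). Both tools called 0, with 0 at an unadjusted p under 0.05, beside the shares of all genes given for the synthetases. The largest values in this list were negative, namely the hormones Fgf21 (−1.30, adjusted p = 0.481) and Gdf15 (−1.06, adjusted p = 0.46) and the lipoprotein receptor Vldlr (−0.84, adjusted p = 0.599). Without Ctl MSC 1, Vldlr was called by edgeR (−1.32, adjusted p = 0.0429), beside 0.852% of all genes called lower. The cell division genes had a median log2 fold change of 2.88 in that fit. No gene of this list was called with any other library left out. Ctl MSC 1 was the lowest library for 13 of the 18 amino acid genes (72.2%), 10 of the 12 synthetases (83.3%) and 12 of the 15 stress genes (80.0%).

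Targets of XBP1 and ATF6, the chaperones and degradation factors of the endoplasmic reticulum, had mostly negative log2 fold changes. Of 24 listed, 23 were tested (Derl3 had 0 to 2 reads per library), and 22 of the 23 had negative log2 fold changes, with a median of −0.36 beside 0.01 over all genes. None was called by edgeR, and 3 (13.0%) had an unadjusted p under 0.05, all lower, beside 15.0% of all genes. DESeq2 called 1 of 24 (4.17%), beside 5.28% of all genes. Sdf2l1, a cofactor of the chaperone BiP, was at 110.4, 151 and 164 CPM in Ctl MSC against 56.7, 60.2 and 71.9 CPM in MSC-TPr. Every Ctl MSC library lay above every MSC-TPr library. Its log2 fold change was −1.17 (SE 0.20, edgeR adjusted p = 0.0774), and it was the gene called by DESeq2 (adjusted p = 0.000221). Without Ctl MSC 1 edgeR called it (−1.32, adjusted p = 0.035), beside 0.852% of all genes called lower. With any other library left out, edgeR called no gene of this list.

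Ssr1, of the translocon, stood at 840.2, 535 and 559.5 CPM in Ctl MSC against 166, 402 and 453 CPM in MSC-TPr (−0.92, SE 0.40, adjusted p = 0.342). The groups did not overlap, and MSC-TPr 1 was the lowest library. Hsp90b1, the chaperone GRP94, had 2844, 5603 and 5769.9 CPM against 3121, 2785 and 2879 CPM (−0.69, SE 0.30, adjusted p = 0.341), with Ctl MSC 1 inside the range of MSC-TPr. Groups did not overlap for 4 of the 23 (17.4%), all lower (Sdf2l1, Ssr1, Sec61b and Dnajb11), beside 12.1% of all genes not overlapping and lower. The positive gene was Hspa5, which encodes BiP (0.05, adjusted p = 0.945). Over libraries 2 and 3, 9 of the 23 (39.1%) were called, all lower (median −0.36), beside 40.0% of all genes called and 19.4% called lower. With the cell division covariate 3 (13.0%) were called, all lower (median −0.20, 17 of 23 negative), beside 12.1% called and 7.36% called lower. Xbp1 and Atf6 themselves had log2 fold changes of 0.03 and −0.21 over the 6 libraries.

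**Figure D4:**
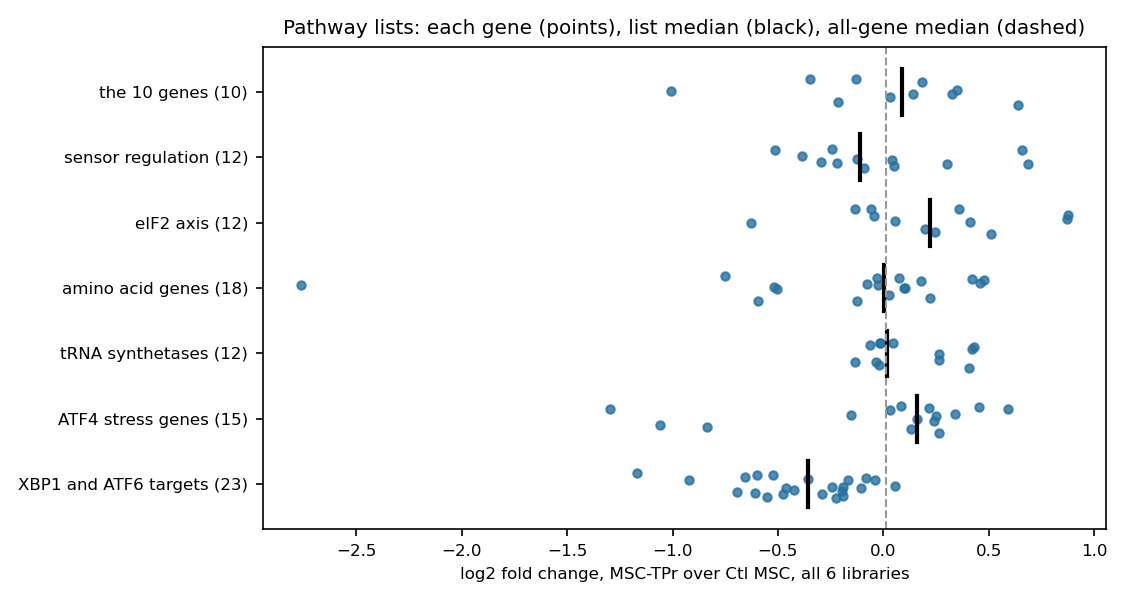
Log2 fold change over all 6 libraries, MSC-TPr over Ctl MSC, of each tested gene (points, spread vertically for visibility) of the 10 genes and of each list, with the number tested in parentheses, the list median (black line) and the median of all genes tested (dashed line at 0.01). Of the XBP1 and ATF6 targets 22 of 23 lie below 0, while the other medians lie between −0.11 and 0.22.

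Genes with patterns most like those of the factors were sought among the 10822 genes with a mean log2 CPM of at least 1, by the root mean square difference of log2 CPM after centring each gene on its mean over the 6 libraries. For Atf4 the nearest were Atf5 (0.054), itself a member of the ATF4 stress list, Dync1li1 (0.062) and Zfp938 (0.065). Atf5 stood at 225, 339 and 359.9 CPM in Ctl MSC against 355, 364 and 314 CPM in MSC-TPr, with Ctl MSC 1 again the lowest. For Ddit3 they were Trnp1 (0.085), Zfp945 (0.123) and Gtpbp2 (0.123), and for Xbp1 they were Pigh (0.054), Cdr2l (0.082) and Ppapdc1b (0.084). Within the 10 genes the closest pairs were Atf4 with Asns (0.140) and Trib3 with Ppp1r15a (0.182), and the farthest was Eif2ak3 with Chac1 (0.880). Each measure rests on the same 6 libraries, which differ in depth and in cell division genes, and carries no test.

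Macrophage, endothelial and granulocyte markers, of other cells that marrow cultures can hold, were low throughout. The summed level of 7 macrophage markers was 11.2 to 14.5 CPM in Ctl MSC against 12.9 to 17.5 in MSC-TPr, with Emr1 (Adgre1) at 0, and that of 5 endothelial markers was 0.785 to 3.09 and 1.62 to 3.32, with Tie1 at 0. The summed level of 4 granulocyte markers was at most 0.055 CPM, with Elane at 0. The endothelial sum was lowest in Ctl MSC 1 (0.785 CPM), the library in which 8 of the 10 genes were lowest, and its part in that result was not tested.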

How the data were processed

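RNA-seq counts of 3 Ctl MSC and 3 MSC-TPr libraries were analysed, with groups taken from the sample labels. Polyadenylated RNA was prepared with a stranded kit and read from both ends. Per the labels, the processing involved CASAVA 1.8.2, Trimmomatic 0.35 and TopHat2 2.1.0, and the authors counted reads aligned to mm10 with Htseq-count and deposited the raw counts without normalization. The strand setting and gene annotation of the counting are not given in the sources used here. Rows that name no gene held 13.8% to 20.8% of listed reads and were left out.

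In R 4.3.3, edgeR 4.0.16 was used with TMM scaling, filterByExpr and a quasi-likelihood fit that had no term but group. The standard error is the size of the log2 fold change divided by the square root of F. DESeq2 1.42.0, the tool of the study's methods, was an alternative, beside other scalings and filters, the replicate block, each library left out, libraries 2 and 3 alone and a cell division covariate. Coordinates and exon lengths come from GENCODE M21. The fits were tested on simulated counts. The authors' DESeq2 comparison was not used.

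The 10 genes, the lists and the alternatives were chosen with earlier results of these data known. The genes named are the 10, the 3 tested genes of each list with the largest log2 fold changes in size, called genes, the transduced genes, and the 3 nearest in pattern to Xbp1, Atf4 and Ddit3. Genes named for untested status, for lack of overlap between the groups, or as the one that differs in sign were chosen after their values were seen. A further marker list is not reported here.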

Additional observations from a re-analysis of the deposited data

How the results depend on the processing

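No call among the 10 genes changed under another scaling (RLE, upper quartile), another filter (none, at least 10 counts in every library), DESeq2, the replicate block or any library left out. Over libraries 2 and 3, Ern1 (−1.65), Atf6 (−0.66) and Ddit3 (−1.16) became called, and Atf4 (−0.010), Trib3 (−0.50), Chac1 (−0.20) and Ppp1r15a (−0.26) turned negative. With the cell division covariate, Chac1 became called (1.16) and Atf6 (0.20), Xbp1 (−0.014) and Ddit3 (0.21) changed sign. Upper quartile scaling moved Xbp1 to −0.0081. With 1 library left out at a time, the log2 fold changes ran from −1.43 to −0.66 for Ern1, −0.55 to 0.0021 for Atf6, −0.088 to 0.22 for Xbp1, −0.23 to 0.46 for Trib3, −0.090 to 0.65 for Ppp1r15a, −0.78 to −0.07 for Ddit3, 0.17 to 0.97 for Chac1, −0.39 to −0.0035 for Eif2ak3, 0.0014 to 0.25 for Atf4 and 0.16 to 0.43 for Asns. The sign of Atf6 turned without Ctl MSC 3, of Xbp1 without Ctl MSC 1, MSC-TPr 2 or MSC-TPr 3, of Trib3 without Ctl MSC 1 or MSC-TPr 1 and of Ppp1r15a without Ctl MSC 1. The cause was not tested.

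Counts of calls moved as follows, and are to be read beside the shares of all genes called in each fit. Over libraries 2 and 3 these shares were 20.6% higher and 19.4% lower, and with the covariate 4.76% and 7.36%. DESeq2 called 5.28% in either direction. Without Ctl MSC 1, edgeR called 0.0251% higher and 0.852% lower of the genes tested over 6 libraries. Over libraries 2 and 3, 3 of the 10 genes were called lower, and with the covariate 1 higher. For sensor partners, DESeq2 and the covariate each gave 1 higher, and libraries 2 and 3 gave 2 higher and 1 lower. For the eIF2 list, DESeq2 gave 3 higher, the covariate 2 higher and 1 lower, and libraries 2 and 3 gave 6 higher. For amino acid genes, DESeq2 and the covariate each gave 1 lower, libraries 2 and 3 gave 1 higher and 5 lower, and leaving out 1 library gave 0 to 1 lower. The covariate gave 1 synthetase higher. For stress genes, libraries 2 and 3 gave 2 higher and 6 lower, and leaving out 1 library 0 to 1 lower. For XBP1 and ATF6 targets, DESeq2 gave 1 lower, the covariate 3, libraries 2 and 3 gave 9 and leaving out 1 library 0 to 1.

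Over all genes, edgeR called 3 higher and 48 lower, DESeq2 244 and 439, the covariate fit 570 and 881, and libraries 2 and 3 alone 2498 and 2356. At least 10 counts in every library gave 29 lower, and leaving out 1 library gave 0 to 11 higher and 0 to 105 lower (11 higher without MSC-TPr 1, 105 lower without Ctl MSC 1). A replicate block in the fit left 0 calls in either direction over all genes, and 0 of the 10. Libraries with the same number were not alike: they deviated from the mean of their group with correlations of −0.765, −0.594 and −0.604, and none was nearest to its own number. As the libraries numbered 1 lay with the other label, these values cannot decide whether the numbers stand for pairs. The scaling that moved the median of all genes most was upper quartile, by −0.0435 on the log2 scale. Depth was not varied.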
